A study of Homo sapiens with 15 samples.

Results

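The Sprouty genes SPRY1, SPRY2 and SPRY4, the SPRED genes SPRED1, SPRED2 and SPRED3, the PEA3-type ETS factors ETV1, ETV4 and ETV5, and PHLDA1 were followed in BEAS-2B cells exposed to fine particulate matter (PM2.5). These 10 genes were chosen by symbol, as genes commonly read as outputs of the ERK pathway, with earlier results of these data known. Each symbol matched 1 row of a table of 58219 genes, and all 10 passed the filter on low counts, which kept 17599 genes.

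BEAS-2B is an immortalised line of human bronchial epithelial cells, a single line carrying viral antigens that immortalise it, and here it was grown without serum on collagen. The PM2.5 was collected in Beijing and extracted in water. There were 5 groups of 3 libraries: vehicle control, 1 µg/cm2 and 30 µg/cm2, each for 24 h, and a control and 1 µg/cm2 in a protocol of daily exposure with collection on day 7. The labels and the study's methods differ by 1 in the number of daily exposures. Cells of the daily protocol were plated at a lower density, so protocol, density and experiment cannot be told apart when the 2 kinds of control are compared. The last number of each sample name is an experimental batch, so that treated and control cells with the same number belong to the same experiment within a protocol.

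Growth factor receptors signal through RAS, RAF and MEK to the kinase ERK, which changes the activity of transcription factors and so the transcription of a set of rapidly responding genes. Sprouty and SPRED proteins are among the products of this set and act back on the pathway upstream of ERK, SPRED proteins by bringing the RAS inactivator neurofibromin to the membrane. ETV1, ETV4 and ETV5 are transcription factors of the same set that carry part of the response to the nucleus, and the repressor Capicua (CIC) holds their genes down until ERK signaling relieves it. PHLDA1 encodes a pleckstrin homology-like domain protein that is induced by growth factors. Since mRNA alone was measured, the values below are transcript levels of these genes and not ERK activity.

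Libraries held 21460981 to 34724765 counts. Mitochondrial genes took 4.13% to 4.40% of counts in the 3 libraries of 24-h experiment 2 and 2.76% to 3.42% in the other 24-h libraries. All 9 epithelial markers examined were at 1 CPM (count per 1000000 counts, scaled by TMM) or more in every library, whereas markers of differentiated airway cells summed to at most 0.592 CPM, of endothelium to at most 0.425 CPM and of leukocytes to at most 2.498 CPM. Of 8 mesenchymal markers, 6 were at 1 CPM or more in every library.

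Experiment 2 of the 24-h protocol stood apart for these genes. In its control library all 10 were more than 1 log2 unit below the mean of experiments 1 and 3, from -1.30 for SPRY2 to -3.92 for ETV4, whereas 6.93% of all tested genes were that far below. At 1 µg/cm2 this held for 8 of the 10 and for 12.4% of tested genes, and at 30 µg/cm2 for SPRY4 alone and for 9.47% of tested genes. Experiments 1 and 3 lay within 0.42 log2 units of each other for every one of the 10 genes in the 24-h controls. Results are therefore given as fitted over all libraries, with a replicate block for the experiment, and without the 3 libraries of 24-h experiment 2, which leaves 2 libraries in each 24-h group. That last fit rests on fewer libraries with a smaller spread, and leaving them out was decided with their values known. In bulk RNA, fewer cells expressing a gene and less RNA per cell cannot be told apart.

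Because CIC and other factors of the pathway bind short known motifs, promoter windows of the 10 genes were read from RefSeq (GRCh38.p14), each from 250 bases before to 50 bases after an annotated start. The table matched 8 genes with 18 windows, the others being ETV4 and ETV5. The motifs below were searched on both strands, and the share of all 35116 windows that held each was 2.63% for the CIC octamer (TGAATGAA or TGAATGGA), 4.95% for AP-1 (TGACTCA or TGAGTCA), 1.85% for the cAMP response element (TGACGTCA), 10.3% for ETS (CCGGAAG), 5.07% for EGR (GCGGGGGCG) and 1.29% for the CArG box bound by serum response factor. Among the 18 windows 13 held none of them, and no matches overlapped. A CIC octamer was present in 1 window of SPRED3 and 1 of ETV1, and an ETS and an EGR match stood in 1 window of SPRY1, an EGR match in SPRY2 and an AP-1 match in SPRED2. The following 3 windows are shown because SPRED3 and ETV1 hold the octamer and the 1 window of SPRY4 holds none of these motifs. SPRY4 had the largest difference between PM2.5 concentrations. Its window lies inside the counted gene, chr5:142310427-142326455 on the minus strand, so the outer start of that gene was not searched. Matches are in capitals, the octamer at -192 and AP-1 at -60 from the start in SPRED3, and the octamer at -125 in ETV1.
SPRED3, chr19:38389541-38389840, plus strand: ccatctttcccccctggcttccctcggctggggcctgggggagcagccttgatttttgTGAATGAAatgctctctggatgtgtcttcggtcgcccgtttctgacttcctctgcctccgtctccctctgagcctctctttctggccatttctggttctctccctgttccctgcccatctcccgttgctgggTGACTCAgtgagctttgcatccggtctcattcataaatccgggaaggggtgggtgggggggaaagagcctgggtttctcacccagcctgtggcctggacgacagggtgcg
ETV1, chr7:13991376-13991675, minus strand: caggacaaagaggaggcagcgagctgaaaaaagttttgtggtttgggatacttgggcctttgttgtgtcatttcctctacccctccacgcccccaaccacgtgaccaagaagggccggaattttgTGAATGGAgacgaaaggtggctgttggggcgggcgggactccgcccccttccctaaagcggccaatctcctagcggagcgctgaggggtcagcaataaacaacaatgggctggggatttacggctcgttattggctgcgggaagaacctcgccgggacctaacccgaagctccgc
SPRY4, chr5:142324198-142324497, minus strand: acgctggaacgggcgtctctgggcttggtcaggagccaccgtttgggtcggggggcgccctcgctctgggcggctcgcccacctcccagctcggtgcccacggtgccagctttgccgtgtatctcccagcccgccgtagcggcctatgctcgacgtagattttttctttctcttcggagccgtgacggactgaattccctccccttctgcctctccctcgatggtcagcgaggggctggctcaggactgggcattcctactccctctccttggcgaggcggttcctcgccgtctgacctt
A match is only an occurrence of these letters, and factor binding was not measured.

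To compare levels between genes, counts were divided by exon length and scaled to TPM (transcripts per 1000000). In the 24-h controls SPRY2 had the highest level, 53.9 ± 24.6 TPM (SD, n = 3), followed by ETV4 (25.9 ± 20.6), SPRED2 (22.1 ± 13.5), PHLDA1 (21.96 ± 15.3), ETV5 (17.0 ± 13.1), SPRED1 (16.1 ± 7.91), SPRY4 (7.41 ± 5.66), ETV1 (5.55 ± 3.95), SPRY1 (4.22 ± 2.38) and SPRED3 (1.81 ± 1.07). The spread came largely from experiment 2, and no gene was above the next in the order in every library when each library of one was set against each of the other. In the controls of the daily protocol SPRY2 was again first, at 31.1 ± 2.15 TPM, and SPRED3 last, at 1.69 ± 0.23 TPM, while ETV4 was at 11.1 ± 1.53 TPM and PHLDA1 at 4.32 ± 0.54 TPM.

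**Figure D1:**
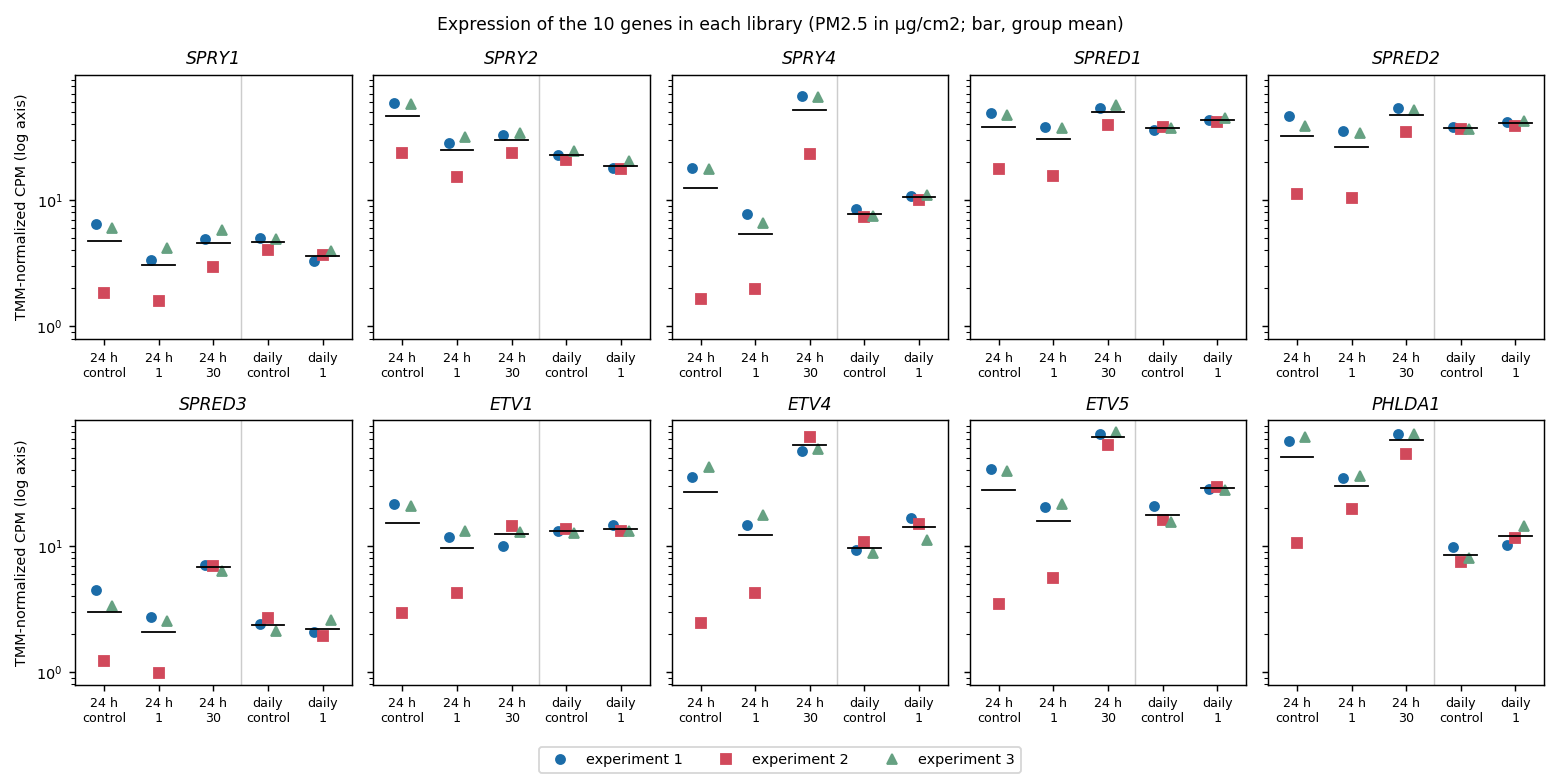
Normalized expression (CPM, log axis) of each of the 10 genes in 15 libraries, by group (24 h with vehicle, 1 or 30 µg/cm2, and daily protocol with vehicle or 1 µg/cm2), with the symbol giving the experiment and the bar the group mean. The squares of experiment 2 lie below the other symbols in the 24-h controls in every panel, and at 30 µg/cm2 they lie with or above the others for SPRED3, ETV1 and ETV4.

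Among the Sprouty genes, SPRY4 had the widest range. SPRY4 (ENSG00000187678.8, chr5:142310427-142326455, minus strand, GRCh38) was at 18.2, 1.65 and 17.5 CPM in control experiments 1, 2 and 3 at 24 h, at 7.72, 1.98 and 6.57 CPM after 1 µg/cm2, and at 67.7, 23.3 and 65.7 CPM after 30 µg/cm2. Every library at 30 µg/cm2 was above every other 24-h library, and in experiments 1 and 3 the library at 1 µg/cm2 was below its control. Within experiments the ratio of 30 µg/cm2 to control was 3.73, 14.1 and 3.74, and that of 30 to 1 µg/cm2 was 8.77, 11.7 and 9.996. Against 1 µg/cm2 SPRY4 rose by a log2 fold-change of 3.25 ± 0.68 (SE; edgeR quasi-likelihood test, Benjamini-Hochberg adjusted p = 0.00829), the largest of the 10. Against the control the log2 fold-change was 2.06 ± 0.64 and missed the threshold (edgeR adjusted p = 0.0593), and with the replicate block it was 2.31 ± 0.25 and passed (edgeR adjusted p = 2.69e-05). At 1 µg/cm2 it was -1.19 ± 0.65 (edgeR adjusted p = 1), whereas without experiment 2 it was -1.31 ± 0.11 and passed (edgeR adjusted p = 1.75e-06).

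SPRY2 did not follow SPRY4. SPRY2 (ENSG00000136158.11, chr13:80335976-80340951, minus strand) was at 58.7, 23.6 and 58.1 CPM in the 24-h controls, at 28.3, 15.4 and 31.7 CPM after 1 µg/cm2 and at 33.2, 23.5 and 33.9 CPM after 30 µg/cm2. Both concentrations gave lower values than the control in experiments 1 and 3, and in experiment 2 the control and 30 µg/cm2 libraries differed by less than 0.01 log2 units. At 1 µg/cm2 the level was 0.483, 0.651 and 0.545 of the control in the 3 experiments, a log2 fold-change of -0.90 ± 0.31 that was called only with the replicate block (-0.86 ± 0.13, edgeR adjusted p = 0.012) or without experiment 2 (-0.95 ± 0.10, edgeR adjusted p = 3.04e-05). At 30 µg/cm2 it was -0.63 ± 0.31 (edgeR adjusted p = 0.234) and, without experiment 2, -0.81 ± 0.10 (edgeR adjusted p = 1.02e-05). Between both concentrations SPRY2 had a log2 difference of 0.26 ± 0.31, and no fit called it. SPRY1 (ENSG00000164056.10, chr4:123396795-123403760, plus strand) was low throughout, between 1.59 and 6.47 CPM. Its level at 1 µg/cm2 was 0.520, 0.864 and 0.698 of the control within experiments, and at 30 µg/cm2 it was 0.762, 1.62 and 0.968 of the control.

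Of the 3 SPRED genes, SPRED3 had the largest fitted differences at 24 h, each smaller in size than that of SPRY4. SPRED3 (ENSG00000188766.12, chr19:38388421-38399587, plus strand), the member whose promoter holds both an octamer and an AP-1 match, was at 4.49, 1.22 and 3.33 CPM in the 24-h controls, at 2.72, 0.99 and 2.53 CPM after 1 µg/cm2 and at 7.04, 6.94 and 6.32 CPM after 30 µg/cm2. The 30 µg/cm2 libraries were above all control and 1 µg/cm2 libraries and differed little among themselves. SPRED3 rose between 1 and 30 µg/cm2 with a log2 fold-change of 1.68 ± 0.40 (edgeR adjusted p = 0.0158), and against the control the value was 1.15 ± 0.39 (edgeR adjusted p = 0.0779) or, with the replicate block, 1.27 ± 0.29 (edgeR adjusted p = 0.00579). SPRED1 (ENSG00000166068.12, chr15:38252326-38357249, plus strand) and SPRED2 (ENSG00000198369.9, chr2:65310851-65432637, minus strand) had nearly parallel values. After 30 µg/cm2 SPRED1 was 1.11, 2.22 and 1.19 times its control within experiments and SPRED2 was 1.15, 3.10 and 1.34 times. After 1 µg/cm2 both were below the control in each experiment, SPRED1 at 0.785, 0.877 and 0.786 and SPRED2 at 0.752, 0.921 and 0.877 of it. For both genes the log2 difference between 30 and 1 µg/cm2 was called only with the replicate block, at 0.82 ± 0.16 for SPRED1 (edgeR adjusted p = 0.00191) and 1.00 ± 0.21 for SPRED2 (edgeR adjusted p = 0.00339). Without experiment 2 the differences were 0.53 ± 0.08 and 0.59 ± 0.09, which passed on the adjusted p-value but not on the size of 0.6 that a call needs.

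ETV4 and ETV5 had higher values after 30 µg/cm2 in each experiment, while ETV1 did not. ETV4 (ENSG00000175832.12, chr17:43527844-43579620, minus strand) was at 35.3, 2.45 and 42.1 CPM in the controls, at 14.8, 4.26 and 17.6 CPM after 1 µg/cm2 and at 56.7, 73.2 and 58.6 CPM after 30 µg/cm2. ETV5 (ENSG00000244405.7, chr3:186046308-186110318, minus strand) was at 40.7, 3.48 and 39.7 CPM in the controls, at 20.2, 5.60 and 21.4 CPM after 1 µg/cm2 and at 77.4, 63.5 and 79.7 CPM after 30 µg/cm2. For both genes the 30 µg/cm2 libraries did not overlap those of the control or of 1 µg/cm2, and in experiment 2 the control was the lowest 24-h library. The size of the difference from the control depended on the experiment: ETV4 was 1.61, 29.9 and 1.39 times its control and ETV5 was 1.90, 18.2 and 2.01 times. Between 1 and 30 µg/cm2 ETV4 rose by a log2 fold-change of 2.36 ± 0.68 (edgeR adjusted p = 0.0426) and ETV5 by 2.22 ± 0.63 (edgeR adjusted p = 0.0388). Against the control the log2 fold-changes were 1.24 ± 0.65 (edgeR adjusted p = 0.279) and 1.39 ± 0.61 (edgeR adjusted p = 0.181), and both were called with the replicate block, at 1.73 ± 0.57 (edgeR adjusted p = 0.0357) and 1.83 ± 0.42 (edgeR adjusted p = 0.00608). Without experiment 2, ETV5 was called at 0.95 ± 0.11 (edgeR adjusted p = 4.85e-06) and ETV4, at 0.56 ± 0.15, was under the size limit.

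ETV1 (ENSG00000006468.13, chr7:13891228-13991425, minus strand) had opposite signs in different experiments. It was at 21.6, 2.97 and 20.8 CPM in the controls, at 11.7, 4.21 and 13.1 CPM after 1 µg/cm2 and at 10.1, 14.4 and 12.9 CPM after 30 µg/cm2. Experiments 1 and 3 thus had their highest value in the control, and experiment 2 had its lowest there. At 30 µg/cm2 the log2 fold-change was -0.29 ± 0.51 over all libraries (edgeR adjusted p = 0.795), 0.03 ± 0.43 with the replicate block (edgeR adjusted p = 0.971) and -0.91 ± 0.12 without experiment 2 (edgeR adjusted p = 2.29e-05). ETV1 was the only one of the 10 that had a negative difference between 30 and 1 µg/cm2 in any experiment, -0.21 and -0.02 log2 units in experiments 1 and 3 against 1.77 in experiment 2. ETV1 and SPRED3, the 2 genes with a CIC octamer in a window shown above, therefore did not have the same pattern.

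PHLDA1 (ENSG00000139289.13, chr12:76025447-76033932, minus strand) was at 68.0, 10.6 and 72.6 CPM in the 24-h controls, at 34.3, 19.7 and 35.8 CPM after 1 µg/cm2 and at 77.6, 53.4 and 77.6 CPM after 30 µg/cm2. Experiments 1 and 3 had nearly equal control and 30 µg/cm2 libraries, with ratios of 1.14 and 1.07, whereas the ratio was 5.04 in experiment 2. From 1 to 30 µg/cm2 the ratio was 2.26, 2.72 and 2.17, with no overlap of libraries. That log2 fold-change was 1.21 ± 0.48 (edgeR adjusted p = 0.131), and it was called with the replicate block (1.28 ± 0.32, edgeR adjusted p = 0.00922) and without experiment 2 (1.12 ± 0.13, edgeR adjusted p = 3.52e-06).

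**Figure D2:**
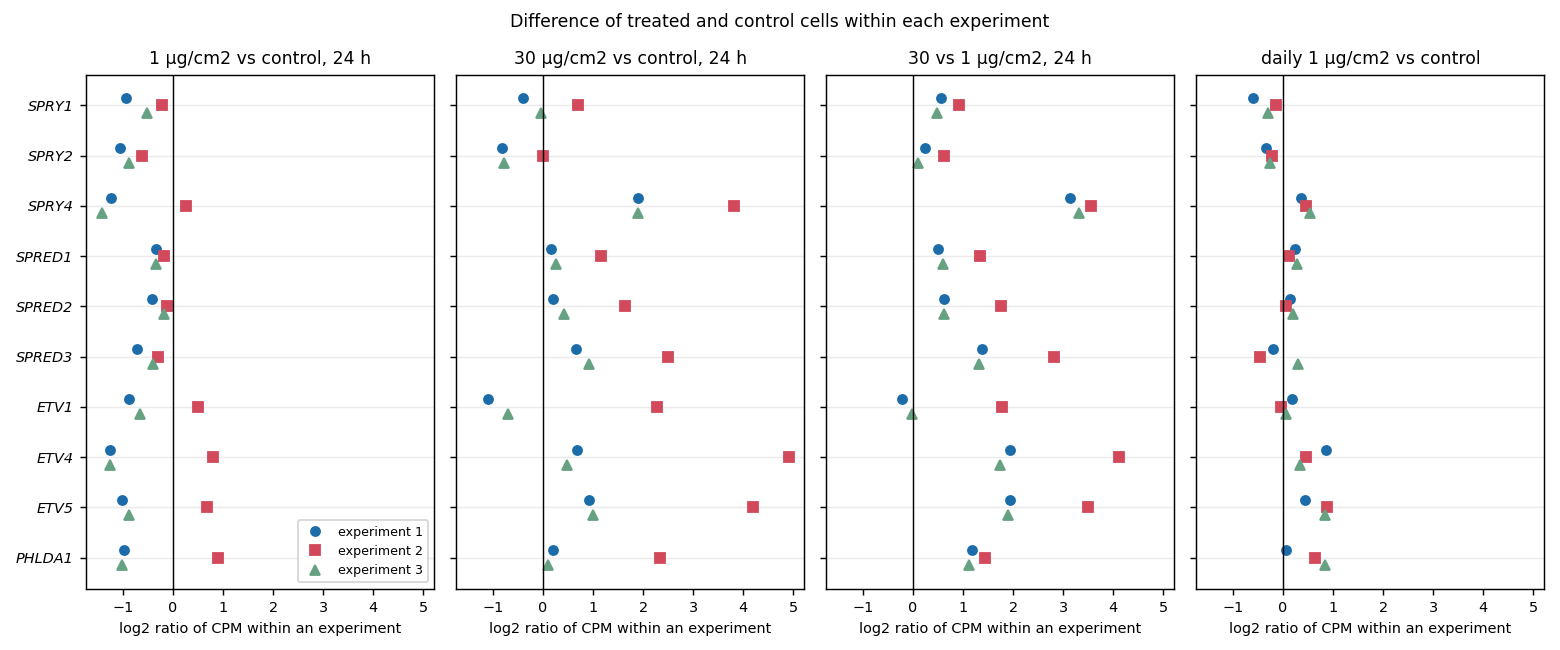
Log2 ratio of CPM within each of 3 experiments for the 10 genes, in 4 comparisons, with the symbol giving the experiment. For 1 µg/cm2 at 24 h all 20 points of experiments 1 and 3 lie left of 0, and for 30 against 1 µg/cm2 28 of 30 points lie right of 0. Points of the same experiment share libraries and the genes are correlated, so the points are not independent. For 30 against 1 µg/cm2, 9 of 10 genes were higher in each experiment, against 31.7% of tested genes.

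Counted together, 30 µg/cm2 against the 24-h control gave none of the 10 genes called over all libraries, where 8.07% of the tested genes were called in either direction. At an unadjusted p-value under 0.05 the edgeR quasi-likelihood test had 3 (SPRY4, SPRED3 and ETV5), against 4161 of 17599 tested genes. The likelihood ratio test of edgeR and DESeq2 each called 2, against 1839 and 1829 tested genes. With the replicate block, there were 5 that rose (SPRY4, SPRED2, SPRED3, ETV4 and ETV5), against 15.2% of tested genes called. Without experiment 2, there were 3 that rose (SPRY4, SPRED3 and ETV5) and 2 fell (SPRY2 and ETV1), against 19.1%, whereas ETV1 was at 0.03 with the block. Leaving out 1 library gave a call of SPRY2 without control experiment 2 (-0.95), of SPRY4 without experiment 2 at 30 µg/cm2 (2.41) and of SPRED3 without control experiment 1 (1.54). The libraries did not overlap, with 30 µg/cm2 higher, for SPRY4, SPRED3, ETV4 and ETV5, which is 4 of 10 against 11.7% of tested genes. The 9 epithelial markers summed to 1039 to 1564 CPM at 30 µg/cm2 and to 2203 to 2940 CPM in the controls, and the part of this difference in the results was not tested.

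A single exposure to 1 µg/cm2 gave no call over all libraries, where 0.0625% of tested genes were called. The edgeR quasi-likelihood test had 1 gene at an unadjusted p-value under 0.05 (SPRY2), against 534 of 17599 tested genes. The likelihood ratio test and DESeq2 called none of the 10, against 34 and 39 tested genes. All 10 fitted log2 fold-changes were negative, with a median of -0.70 beside 0.01 over all tested genes. Within experiments, all 10 were below their control in experiments 1 and 3, with medians of -0.96 and -0.77 log2 units, whereas 5 were above it in experiment 2 (SPRY4, ETV1, ETV4, ETV5 and PHLDA1). The other 5 were lower in all 3 experiments, and 15.2% of tested genes were higher in none of the 3. With the replicate block SPRY2 fell, against 0.420% of tested genes called. Without experiment 2 SPRY1, SPRY2, SPRY4, ETV1, ETV4, ETV5 and PHLDA1 fell, 7 of 10 against 2.11%. None of the 10 had libraries without overlap, and 2.13% of tested genes had none with the treated cells lower.

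The contrast of 30 with 1 µg/cm2 gave the most calls over all libraries and with the replicate block, but not without experiment 2. SPRY4, SPRED3, ETV4 and ETV5 rose, 4 of 10 against 7.84% of tested genes called. The likelihood ratio test and DESeq2 also called 4, against 1767 and 1774 of 17599 tested genes. With the replicate block 8 rose, all but SPRY2 and ETV1, against 15.6%, and without experiment 2 there were 5 that rose (SPRY4, SPRED3, ETV4, ETV5 and PHLDA1) against 17.3%. When only the 6 libraries of these groups entered the fit, none of the 10 was called, against 149 of 16231 tested genes. Libraries of 6 genes did not overlap, with 30 µg/cm2 higher (SPRY4, SPRED1, SPRED3, ETV4, ETV5 and PHLDA1), against 11.5% of tested genes. This contrast shares its libraries with both comparisons against the control, so its values are not independent of theirs. The calls of ETV4 and ETV5 were lost without any 1 library of the 1 µg/cm2 group and without experiment 1 or 3 at 30 µg/cm2, with log2 fold-changes of 1.94 to 2.71 for ETV4 and 1.81 to 2.495 for ETV5 in those fits. SPRED3 lost its call without experiment 1 at 30 µg/cm2 (1.63), and SPRY4 kept its call without each library in turn.

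**Figure D3:**
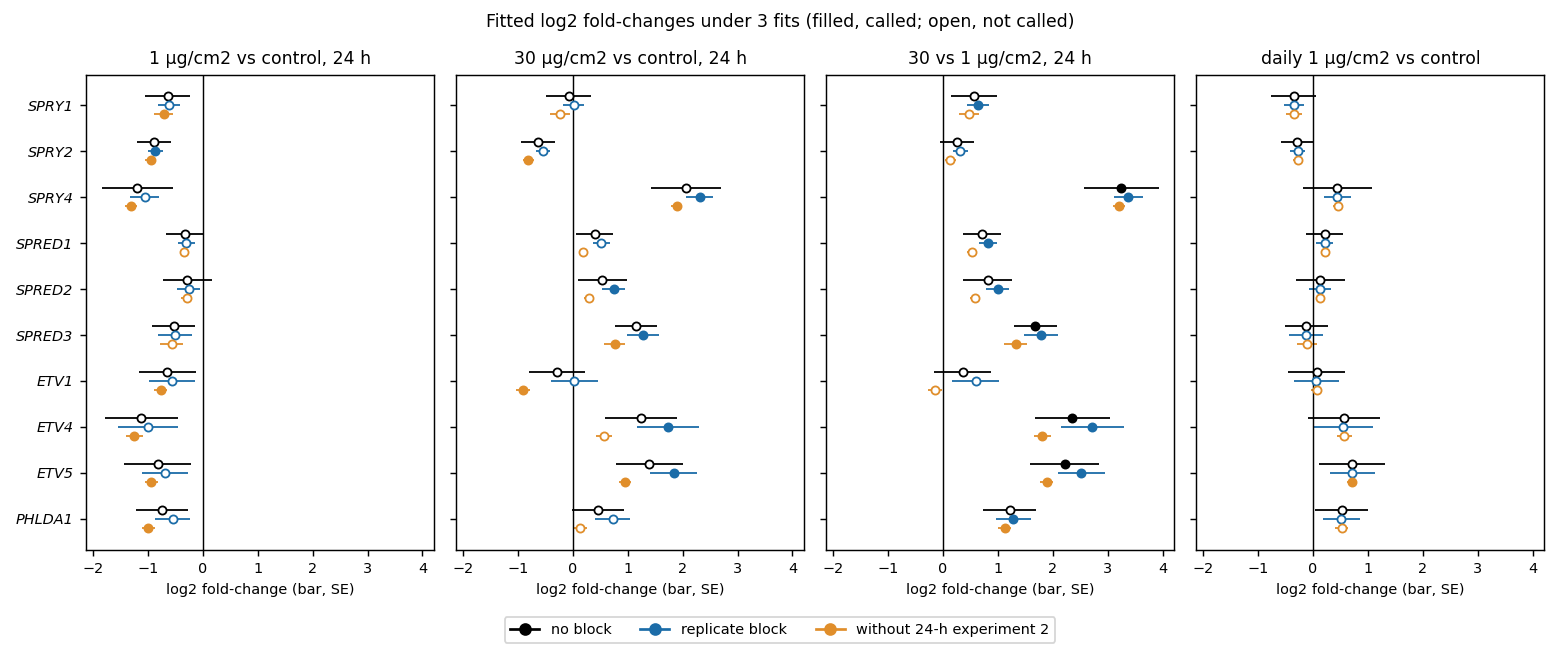
Fitted log2 fold-changes with SE for the 10 genes in 4 comparisons over all libraries (black), with the replicate block (blue) and without 24-h experiment 2 (orange), where filled points were called. For 30 against 1 µg/cm2 SPRY4, SPRED3, ETV4 and ETV5 are filled in all 3 fits, and SPRY2 and ETV1 in none.

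After daily exposure to 1 µg/cm2 the fitted differences from the control lay between -0.35 and 0.71 log2 units. Between experiments PHLDA1 ran from 0.07 to 0.83 log2 units, and SPRED3 and ETV1 changed sign. ETV5 had the largest fitted difference. It was at 20.9, 16.1 and 15.6 CPM in the controls and at 28.5, 29.5 and 28.0 CPM after daily exposure, a ratio of 1.36, 1.83 and 1.80. SPRY4 was at 8.51, 7.39 and 7.53 CPM against 10.9, 10.1 and 10.9 CPM, and ETV4 at 9.24, 10.9 and 8.75 CPM against 16.7, 14.9 and 11.1 CPM. For these 3 genes the lowest exposed library exceeded the highest control, and the same held for SPRED1, SPRED2 and PHLDA1. SPRY2 was lower without overlap, at 23.0, 20.8 and 24.8 CPM in the controls and 18.1, 17.8 and 20.6 CPM after exposure, and so was SPRY1. Thus 6 of 10 genes were higher and 2 lower without overlap, against 21.3% and 21.6% of all tested genes. SPRED3 and ETV1 overlapped.

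None of the 10 daily differences was called over all libraries, where 0.227% of tested genes were. None had an unadjusted p-value under 0.05 in the edgeR quasi-likelihood test, against 2102 of 17599 tested genes. None was called by the likelihood ratio test or DESeq2, against 194 and 250 tested genes. The replicate block gave no call either, against 4.39%. The fitted log2 fold-changes ran from -0.35 ± 0.41 for SPRY1 to 0.71 ± 0.61 for ETV5. Their SEs come from a spread shared with the 24-h libraries. Without 24-h experiment 2, ETV5 was called at 0.71 ± 0.10 (edgeR adjusted p = 0.000115), against 6.03% of tested genes, while SPRY4 (0.45 ± 0.09, edgeR adjusted p = 0.00224), ETV4 (0.57 ± 0.14, edgeR adjusted p = 0.00716) and PHLDA1 (0.53 ± 0.12, edgeR adjusted p = 0.00463) were under the size limit. In the fit to the 6 daily-protocol libraries alone 1 of the 10 was called, against 1029 of 16506 tested genes.

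Whether the response to 1 µg/cm2 differed between daily and single exposure was tested as the difference of both log2 fold-changes. All 10 differences were positive, with a median of 0.66 beside -0.01 over all tested genes, and the largest were 1.69 ± 0.94 for ETV4, 1.64 ± 0.90 for SPRY4, 1.53 ± 0.86 for ETV5 and 1.27 ± 0.68 for PHLDA1. None was called by the edgeR quasi-likelihood test, where 0% of tested genes were. None of the 10 had an unadjusted p-value under 0.05, against 1245 of 17599 tested genes. None was called by the likelihood ratio test or DESeq2, against 13 and 75 tested genes. With the replicate block none of the 10 was called either, against 1.03% of tested genes. Without 24-h experiment 2, 6 were called, all positive (SPRY2, SPRY4, ETV1, ETV4, ETV5 and PHLDA1), against 9.84%. Leaving out only control experiment 2 at 24 h gave a call of PHLDA1 (1.74). The 24-h and daily cells came from different experiments, so this difference cannot be told apart from one between protocols.

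Untreated cells of both protocols differed most for PHLDA1. It was at 9.77, 7.46 and 8.06 CPM in the daily-protocol controls and at 68.0, 10.6 and 72.6 CPM in the 24-h controls, so that the highest daily-protocol library was below the lowest 24-h library. PHLDA1 was lower in the daily-protocol controls by a log2 fold-change of -2.58 ± 0.51 (edgeR adjusted p = 0.00198) and SPRY2 by -1.03 ± 0.31 (edgeR adjusted p = 0.0233). The call of SPRY2 was lost without control experiment 1 (-0.87) or 3 (-0.87) at 24 h and without each daily-protocol control in turn (-0.97 to -1.09). These 2 of 10 were called against 21.9% of all tested genes. Without 24-h experiment 2 SPRY4, SPRED3, ETV1, ETV4 and ETV5 were called lower as well, 7 of 10 against 31.0%. Leaving out only control experiment 2 at 24 h added calls of ETV4 (-2.03) and ETV5 (-1.22). The block cannot be fitted here because experiments are nested in protocols. Scaling to library totals alone moved the median of all genes from 0.02 to 0.16, and SPRY1 and SPRED1, which were at -0.05 and -0.03, turned positive. The 8 mesenchymal markers summed to 924 to 1024 CPM in the daily-protocol controls and to 1696 to 2888 CPM in the 24-h controls. Most of these sums came from FN1, with means of 656.5 against 1769 CPM, and VIM, with 234.1 against 532.3 CPM. CDH2 was lower as well (1.48 against 6.36 CPM). COL1A1 was nearly equal (41.1 against 42.0 CPM), whereas COL1A2 (20.9 against 17.3 CPM) and DCN (6.17 against 5.40 CPM) were higher. LUM and PDGFRA were under 1 CPM. The part of these markers in the differences was not tested.

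Other genes of the pathway were grouped by role, and their counts stand beside the 8.07% of all tested genes called at 30 µg/cm2. Of 26 genes from receptors to ERK, 3 fell after 30 µg/cm2, FGFR2 (log2 fold-change -2.15 ± 0.36), ERBB3 (-0.93 ± 0.17) and FGFR3 (-0.85 ± 0.25), all of the receptor tyrosine kinase families, and none rose, with a median of -0.01 for the list and 0.03 for all tested genes. FGFR3 was not called without experiment 2. Beside the Sprouty and SPRED genes, 15 tested genes were listed as brakes. Of these, the ERK phosphatase DUSP5 (2.23 ± 0.47) and the kinase TESK1 (0.90 ± 0.17) rose. TESK1 binds Sprouty proteins, and whether it acts as a brake was not tested. Of 12 tested further outputs, 5 rose: the immediate early factor EGR1 (5.09 ± 0.46), the cytokine LIF (3.35 ± 0.41), IER3 (2.59 ± 0.68), and the AP-1 subunits FOSL1 (2.12 ± 0.40) and FOS (1.39 ± 0.30). The ETS factor ETS2 fell (-1.02 ± 0.13). The median of this list was 1.30, beside 0.50 for the 10 genes described here.

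Of 10 tested ligands of the EGF and FGF receptors, 5 rose, all of the EGF family: EREG (2.13 ± 0.44), EPGN (2.08 ± 0.60), BTC (1.72 ± 0.32), HBEGF (1.70 ± 0.29) and AREG (0.77 ± 0.23). EPGN and BTC were low in the 24-h controls, at 0.28 to 0.48 CPM and 0.39 to 0.47 CPM. AREG rose in experiments 1 (45.0 to 104 CPM) and 3 (54.5 to 107.3 CPM) but not in experiment 2 (58.8 to 58.2 CPM). Of 12 genes that control ETS factors, among them CIC itself, ERF and the ELK genes, TRIB2, a pseudokinase, fell (-1.36 ± 0.32) and none rose. The 3 of 26 receptors-to-ERK genes and the 1 of 12 ETS control genes are near the share over all tested genes. With the replicate block, where 15.2% of tested genes were called, 8 outputs, 5 brakes, 7 ligands and 2 ETS control genes rose, and 3 receptors-to-ERK genes, 1 output and 1 ETS control gene fell. CIC was at 96.9 to 125.2 CPM in the 24-h controls and at 82.3 to 96.0 CPM after 30 µg/cm2. Between 1 and 30 µg/cm2 the further outputs had 7 up and 1 down of 12, including the phosphatase DUSP6 (3.38 ± 0.65) and the receptor EPHA2 (1.80 ± 0.39), the brakes 3 up, the ligands 5 up and the ETS control genes 1 up (TRIB1), while the receptors-to-ERK list had 2 down. In this contrast 7.84% of all tested genes were called. DUSP4 and DUSP6 stand in both the output and the brake list, so the counts of these lists share genes. The lists were chosen with results of these data known, so their counts are descriptions.

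No gene of these 5 lists was called at 1 µg/cm2, for 24 h or daily, by the edgeR quasi-likelihood test over all libraries without the block. At an unadjusted p-value under 0.05 the single exposure had 3 brakes, 3 outputs and 1 ETS control gene, against 534 of 17599 tested genes. The daily exposure had 1 brake, 1 output, 1 receptor-to-ERK gene and 3 ligands, against 2102 of 17599. The likelihood ratio test had no calls in these lists, and DESeq2 called 1 ligand after daily exposure, against 250 of 17599 tested genes. With the replicate block the single exposure again had no call in these lists. After daily exposure the ligand EPGN rose (2.29), against 4.39% of tested genes called, and FGFR2 (-0.65) and NF1 (-0.61), which encodes neurofibromin, fell. EPGN was low, at 0.114, 0.096 and 0.157 CPM in the daily-protocol controls and 0.194, 0.347 and 1.466 CPM after exposure. Its highest value came from 1 library, that of experiment 3. Without 24-h experiment 2, the single exposure had 6 of 12 outputs (DUSP6, DUSP4, FOS, FOSL1, CCND1 and EPHA2), 3 brakes (DUSP4, DUSP5 and DUSP6) and 2 ETS control genes (TRIB1 and TRIB2) called lower, against 2.11% of tested genes. In the same fit daily exposure had EGR1 and 2 ligand genes (EPGN and 1 that did not pass the filter over all 15 libraries) higher, and FGF1, FGFR2 and NF1 lower, against 6.03%.

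In the daily-protocol controls the outputs CCND1 (-2.58 ± 0.76), IER3 (-2.42 ± 0.78), FOSL1 (-1.78 ± 0.40) and DUSP4 (-1.44 ± 0.41) were called lower than in the 24-h controls and none higher, 4 of 12 where 21.9% of all tested genes were called. Of the receptors-to-ERK list 5 were higher (FGFR3, BRAF, FRS2, KSR1 and GAB1) and FGFR4 was lower. The ligands had BTC and HBEGF higher and EREG lower, the brakes had DUSP9 and IL17RD higher and DUSP4 and DUSP5 lower, and the ETS control genes had TRIB1, TRIB2 and ELK3 lower.

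**Figure D4:**
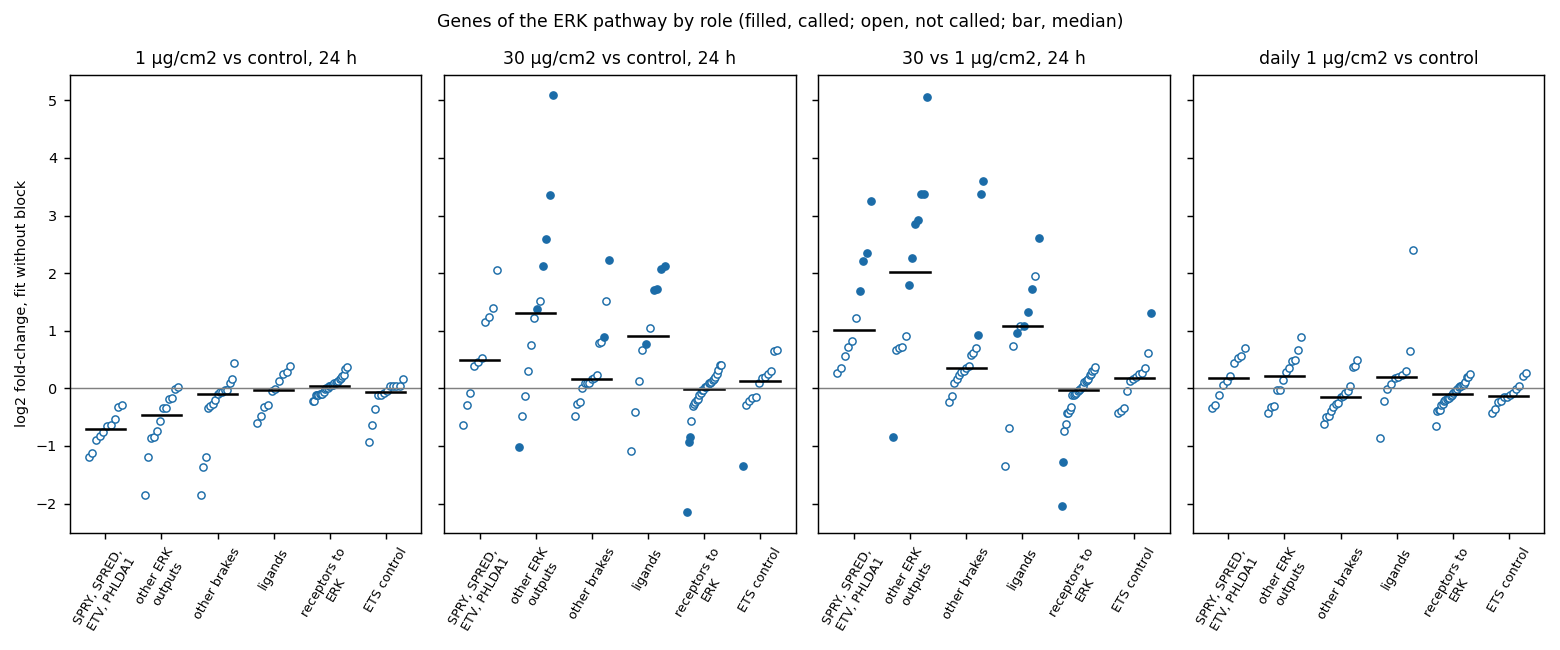
Fitted log2 fold-changes over all libraries for the 10 genes and for the other genes of the pathway by role, in 4 comparisons (filled, called; bar, median). After 30 µg/cm2 the filled points above 0 lie among the other outputs, the other brakes and the ligands, and EGR1 is the highest at 5.09.

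Over the 15 libraries the genes most like each of the 10 were found by Pearson's r of log2 CPM, which is a description because the libraries share groups and experiments. SPRY4 was most like EPHA2 (r = 0.975), POLR3D (0.969) and DUSP6 (0.966), and ETV5 was most like SPRY4 (0.965) and ETV4 (0.955). SPRED1 and SPRED2 were each other's nearest gene (r = 0.986). SPRY2 was nearest to the phosphatase DUSP4 (r = 0.955), and PHLDA1 to PSME3 (0.985). Without the 3 libraries of 24-h experiment 2, 12 libraries remained, and r was 0.974 for SPRY4 with EPHA2, 0.966 with DUSP6, 0.964 for ETV5 with SPRY4, 0.923 for SPRED1 with SPRED2, 0.986 for SPRY2 with DUSP4 and 0.988 for PHLDA1 with PSME3. ETV1 had no gene above r = 0.911 (KNOP1), which was 0.756 without those libraries. Within the 10 genes r ran from 0.305, for ETV1 with PHLDA1, to 0.986.

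Some exons are shared with other genes, and the strand used in counting was not given in the sources used here. ETV4 shares 68 exon bases, 1.89% of its exons, with DHX8 on the other strand, which had 1403 to 3013 counts per library. ETV5 shares 164 bases with DGKG on its own strand, which had at most 43 counts, and PHLDA1 overlaps 2 noncoding genes with at most 1 count.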

How the data were processed

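RNA was prepared as a poly-A library and sequenced as single-end reads of 50 bases. The authors aligned reads with STAR and counted them per gene with featureCounts, and the deposited values are raw counts with an exon length. The study's methods name GRCh38, which the gene positions in the table fit (57370 of 57392 matched identifiers overlapped their GENCODE position), although the submitters' processing notes name another build. The options of featureCounts were not given in the sources used here.

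Libraries (21460981 to 34724765 counts) were scaled by TMM in edgeR 4.0.16 (R 4.3.3), filtered with filterByExpr by group, and fitted by the quasi-likelihood model in its legacy mode with 1 mean per group over 15 libraries. A call needed an adjusted p (Benjamini-Hochberg, over all tested genes) under 0.05 together with a log2 fold-change of 0.6 or more in size. SEs were derived from the fold-change and its F statistic. CPM are TMM-normalized. These SEs include the spread between libraries.

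Replicate numbers come from the labels, which name them as experimental batches. Deviations from the group mean correlated at 0.201 to 0.721 between same-numbered 24-h libraries and at 0.121 to 0.181 in the daily protocol, so the number was also fitted as a block, separately per protocol. Between differently numbered libraries the values were -0.683 to 0.453 at 24 h and -0.127 to -0.0341 in the daily protocol. At 24 h, experiment 3 at 1 µg/cm2 correlated at 0.421 with control experiment 1 and at 0.353 with its own control. The 3 experiments are described as independent, but they used 1 cell line. Alternatives were other normalizations and filters, the likelihood ratio test, DESeq2 1.42.0, the newer edgeR mode, only the groups compared, each library left out and 24-h experiment 2 left out. The fit was tested on simulated counts that held changed genes but no difference between experiments. Its behaviour under a shift such as that of 24-h experiment 2 was therefore not tested. The members and lists were chosen with earlier results of these data known. All 10 genes are named, with the called genes of each list (at most the 6 largest) and the 3 genes most like each member, of which some are given. DNA methylation was not analysed here.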

Additional observations from a re-analysis of the deposited data

Results flagged for a closer look

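SPRED1 and SPRED2 had differences of opposite sign after single and daily exposure to 1 µg/cm2, with each of 3 experiments lower than its control at 24 h and each of 3 higher in the daily protocol. Both were flagged because of this agreement of signs. Of all tested genes, 15.2% were higher in none of 3 experiments after single exposure. After daily exposure 30.5% were higher in each of 3, and the share with both was not counted. The daily minus the single log2 response was 0.53 for SPRED1 (edgeR quasi-likelihood test, adjusted p = 0.89) and 0.42 for SPRED2 (adjusted p = 0.942), so neither tested difference passed. With the replicate block these were 0.52 (adjusted p = 0.211) and 0.39 (adjusted p = 0.476). Without 24-h experiment 2 they were 0.55 (adjusted p = 0.00173) and 0.44 (adjusted p = 0.0179), both under the size of 0.6 that a call needs.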

How the results depend on the processing

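For 30 µg/cm2 against control, where 0 of 10 genes were called, the counts were 5 with the replicate block, 5 without 24-h experiment 2, 3 with no filter on low counts, 2 by the likelihood ratio test, 2 by DESeq2 and 1 in the newer edgeR mode, and leaving out 1 library gave 0 to 1. The fit with no filter called 1663 of 36501 tested genes, and the newer edgeR mode called 1468 of 17599. For 1 µg/cm2 against control (0 called) they were 1 with the block, 7 without experiment 2 and 0 without any 1 library. For daily exposure (0 called) 1 was called in only the groups compared, 1 without 24-h experiment 2 and 0 without any 1 library. The fit to only those groups called 1029 of 16506 tested genes. For 30 against 1 µg/cm2 (4 called) 0 were called in only the groups compared and 8 with the block, and leaving out 1 library gave 1 to 4. For the daily minus the single response (0 called) 6 were called without experiment 2, and leaving out 1 library gave 0 to 1. For the controls of both protocols (2 called) 1 was called with library totals only and 7 without experiment 2, and leaving out 1 library gave 1 to 4. The replicate block changed no call in daily exposure or in the difference of responses. The cause of these changes was not tested, beyond the smaller number of libraries in some fits. Directions turned only for values that were not called over all libraries. Among them, ETV1 at 30 µg/cm2 and SPRED3 and ETV1 between the controls had been called lower without experiment 2. For 30 µg/cm2 against control, SPRY1 was 0.013 and ETV1 0.028 with the block, and leaving out 1 library gave -0.453 to 0.196 for SPRY1, -0.773 to 0.045 for ETV1 and -0.017 to 0.818 for PHLDA1. For 1 µg/cm2 against control SPRED2 ran from -0.672 to 0.102. For 30 against 1 µg/cm2 ETV1 was -0.144 without experiment 2 and -0.009 to 0.629 without 1 library, and SPRY2 was -0.005 to 0.457. For the controls of both protocols, library totals only gave 0.099 for SPRY1 and 0.115 for SPRED1, and SPRED2 was -0.224 without experiment 2. Leaving out 1 library gave -0.446 to 0.203 for SPRY1, -0.394 to 0.154 for SPRED1, -0.227 to 0.530 for SPRED2, -0.732 to 0.020 for SPRED3 and -0.712 to 0.106 for ETV1.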
